A study of Mus musculus with 6 samples.

Results

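The genes described here carry glucose into the cell and break it down to lactate. 10 genes were listed by name: the glucose transporter gene Slc2a1 and the enzyme genes Hk1, Hk2, Gpi1, Pfkl, Pfkp, Aldoa, Pgk1, Eno1 and Ldha. A listed gene was measured where a probe set, the group of array probes summarised into 1 value, was annotated with its symbol and no other. This held for 7 of the 10, among 22180 genes measured in the same way. Gpi1 and Eno1 had no such probe set in the annotation used here, and Aldoa shared its probe set with Aldoart1, so these 3 genes have no value of their own. A gene with several probe sets was read from the brightest, by its mean over the 6 arrays.

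RNA came from primary lung fibroblasts of adult mice of mixed strain, passaged at most 3 times. Cells of both groups carried UBCCreERT/RSmoM2, a Cre recombinase that works in the presence of tamoxifen compounds and is driven by the ubiquitin C promoter, together with an allele of SmoM2, an always active form of the hedgehog pathway protein Smoothened. 3 wells had 1 µg/ml 4-hydroxytamoxifen (4OHT) for 48 h, and 3 wells had vehicle for the same time. All arrays share 1 genotype number and the wells were split from isolated cells, so the p-values rest on well-to-well spread alone and that spread may be technical. No group had the drug without the allele, and effects of the drug, of Cre and of SmoM2 cannot be told apart.

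Glycolysis turns 1 molecule of glucose into pyruvate in the cytosol and yields ATP without oxygen. Glucose enters through carriers such as the product of Slc2a1, hexokinases trap it by adding a phosphate, and phosphofructokinase commits it to breakdown. Lactate dehydrogenase then reduces pyruvate to lactate, which restores the cofactor that the pathway consumes. Most steps can be run by several enzymes made from different genes, which differ between tissues and in how they are controlled. Dividing cells, cells short of oxygen and fibroblasts that lay down matrix are known for high glycolytic flux. Transcripts alone, as measured here, do not give that flux.

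Of the 7 measured genes, Hk2 was the 1 that passed the test. Hk2, which encodes the inducible hexokinase found on mitochondria of muscle, fat and dividing cells, was 1.49-fold higher in 4OHT wells than in vehicle wells. Slc2a1, Hk1, Pfkl, Pfkp, Pgk1 and Ldha had log2 fold changes between -0.01 and 0.05, and none of them passed. The test was limma's moderated test over all 22180 genes, with Benjamini-Hochberg adjustment and a call at an adjusted p under 0.05. With that rule 5.38% of all genes were called higher and 6.62% lower, 12% in all. The share of measured members called, 14.3%, is near that background, and it describes 1 gene and not a shift of the group. The median log2 fold change was 0.04 over the 7 members and -0.01 over all genes tested.

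Uptake comes first. Slc2a1 encodes GLUT1, the carrier through which most cells take up glucose at rest. Its log2 expression was 13.13, 13.13 and 13.15 in 4OHT wells, against 13.07, 13.11 and 13.09 in vehicle wells. The 4OHT wells all lay above the vehicle wells. Groups without overlap were found for 2 of the 7 members, Slc2a1 and Hk2, both higher in 4OHT wells, beside 15% of all genes in that direction and 32.7% in either. The gap was small, with a log2 fold change of 0.05 (SE 0.040, 95% interval -0.05 to 0.14, limma adjusted p = 0.494). A second probe set of Slc2a1 had a log2 fold change of 0.01 and its groups overlapped.

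Hexokinase traps glucose in the cell, and 2 of its forms are members. Hk2 had log2 expression of 9.55, 9.63 and 9.58 in 4OHT wells, against 8.91, 9.07 and 9.07 in vehicle wells. The lowest 4OHT well stood well above the highest vehicle well, and vehicle well 1 was the lowest of all. The means were 9.59 ± 0.04 in 4OHT wells and 9.02 ± 0.09 in vehicle wells (SD, n = 3 each), with a log2 fold change of 0.57 (SE 0.060, 95% interval 0.43 to 0.71, limma adjusted p = 0.00203). Ordered by p-value, Hk2 stood at place 413 of all genes tested. Dropping any 1 array kept the call and gave log2 fold changes from 0.52 to 0.60 (adjusted p from 0.00598 to 0.0132).

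Hk1, the hexokinase made in nearly every tissue, did not pass. It had log2 expression of 9.28, 9.33 and 9.29 in 4OHT wells, against 9.28, 9.26 and 9.23 in vehicle wells, and the groups overlapped (log2 fold change 0.04, SE 0.042, 95% interval -0.06 to 0.14, limma adjusted p = 0.578). A further probe set was annotated with both Hk1os, a long non-coding RNA gene, and Hk1, and its signal cannot be given to either. That probe set was at 7.91, 7.95 and 7.93 in 4OHT wells, against 8.14, 8.18 and 8.08 in vehicle wells (log2 fold change -0.20, limma adjusted p = 0.0867 in a fit over all probe sets). It pointed the other way from Hk2 and did not pass. Its groups did not overlap, as for 17.8% of all genes tested in that direction. The fit over all probe sets called fewer genes than the fit used for the other members, 571 higher and 818 lower against 1193 and 1469.

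As a description, since Hk2 was singled out for its call, its log2 fold change exceeded that of Hk1 by 0.53, of Slc2a1 by 0.52, of Pfkl by 0.58, of Pfkp by 0.55, of Pgk1 by 0.53 and of Ldha by 0.53. The 95% interval of Hk2 began at 0.43, and the highest upper bound among the other 6 members was 0.19.

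**Figure D1:**
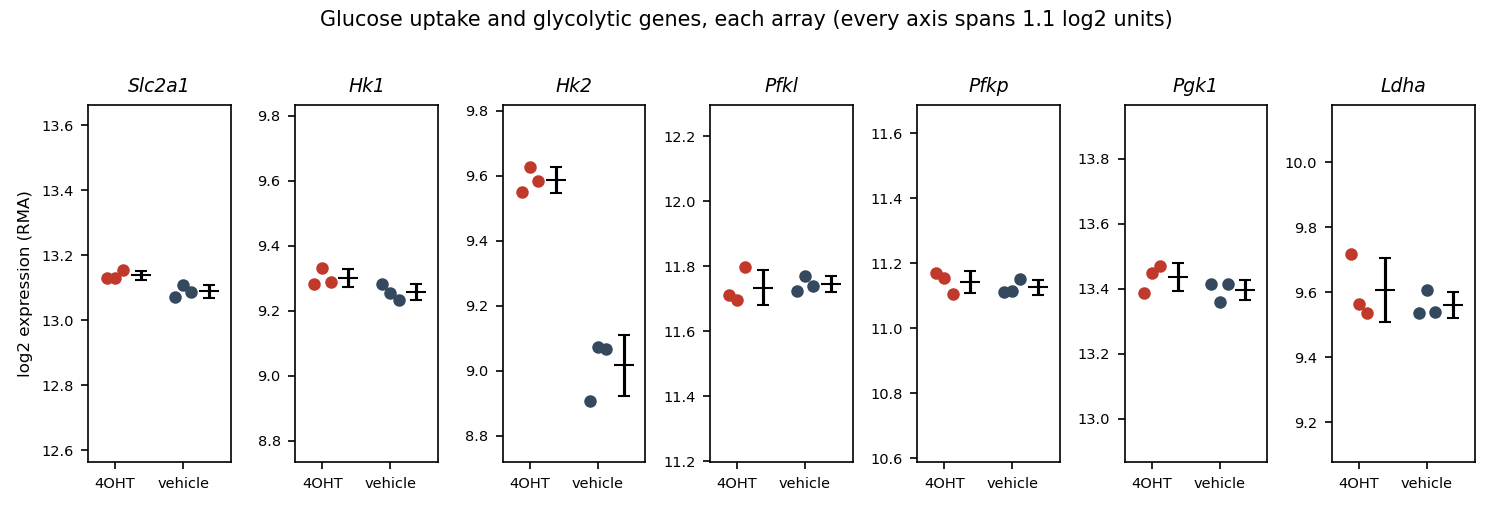
Log2 expression of the 7 measured genes on each array, with 4OHT wells (red) left of vehicle wells (dark blue) and the mean ± SD of 3 wells beside them. All axes span the same range, so that the gap of Hk2, with means of 9.59 in 4OHT wells and 9.02 in vehicle wells, can be compared with the others by eye.

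Phosphofructokinase catalyses the committed step and has liver (Pfkl) and platelet (Pfkp) forms, neither of which passed. Pfkl had 11.71, 11.70 and 11.80 in 4OHT wells, against 11.72, 11.77 and 11.74 in vehicle wells (log2 fold change -0.01, 95% interval -0.12 to 0.10, limma adjusted p = 0.917). Pfkp had 11.17, 11.15 and 11.10 in 4OHT wells, against 11.11, 11.11 and 11.15 in vehicle wells (log2 fold change 0.02, 95% interval -0.08 to 0.12, limma adjusted p = 0.844). The groups overlapped for both genes. For these wells and the deposited scaling, the intervals bound the differences of both genes at 95% confidence. They rest on well-to-well spread alone and do not cover differences between animals or a change of scaling.

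Later in the pathway, Pgk1 encodes the kinase that makes the first ATP of the payoff phase. Pgk1 had 13.39, 13.45 and 13.47 in 4OHT wells, against 13.42, 13.36 and 13.42 in vehicle wells (log2 fold change 0.04, 95% interval -0.07 to 0.15, limma adjusted p = 0.650). Ldha, the lactate dehydrogenase subunit that favours lactate formation, had 9.72, 9.56 and 9.54 in 4OHT wells, against 9.54, 9.61 and 9.54 in vehicle wells. Its groups overlapped and 4OHT well 1 was the highest of all (log2 fold change 0.04, 95% interval -0.10 to 0.19, limma adjusted p = 0.702). Without that well the log2 fold change of Ldha was -0.01. The probe set that names Aldoa, the main aldolase of muscle and many other tissues, together with Aldoart1 was at 8.39, 8.42 and 8.45 in 4OHT wells, against 8.21, 8.18 and 8.45 in vehicle wells. Its groups overlapped through vehicle well 3 (log2 fold change 0.14, limma adjusted p = 0.407 in a fit over all probe sets).

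The remaining enzymes of glycolysis were taken from a list of 18 genes, of which 16 were measured. 2 of the 16 rose, 2 fell and 12 did not pass, beside 5.38% and 6.62% of all genes, and their median log2 fold change was 0.00. Aldoc, the aldolase best known from brain, was at 11.51, 11.57 and 11.56 in 4OHT wells, against 10.84, 10.86 and 11.01 in vehicle wells, a 1.56-fold rise (SE 0.057 on the log2 scale, limma adjusted p = 0.00118). Eno2, the neuronal enolase, was at 8.83, 8.89 and 8.95 in 4OHT wells, against 8.15, 8.29 and 8.31 in vehicle wells, also a 1.56-fold rise (SE 0.061, limma adjusted p = 0.00151). In both genes every 4OHT well stood above every vehicle well, and the rises were about as large as that of Hk2.

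Both genes that fell encode muscle forms. Pfkm, the muscle phosphofructokinase, was at 10.25, 10.10 and 10.19 in 4OHT wells, against 10.46, 10.46 and 10.46 in vehicle wells (log2 fold change -0.28, SE 0.051, limma adjusted p = 0.0177). Eno3, the muscle enolase, was at 10.87, 10.82 and 10.99 in 4OHT wells, against 11.15, 11.17 and 11.23 in vehicle wells (log2 fold change -0.29, SE 0.058, limma adjusted p = 0.0224). The groups did not overlap in either gene. Dropping 4OHT well 2 (adjusted p = 0.0597) or any 1 vehicle well (0.0505 to 0.0657) ended the call of Pfkm. Eno3 stayed called only when 4OHT well 3 was the array dropped, and missed the threshold in the other 5 cases (0.0582 to 0.0815).

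The 12 enzymes that did not pass had log2 fold changes from -0.19 to 0.12. The lowest were Ldhb and Bpgm, both at -0.19 (limma adjusted p = 0.121 and 0.125), named after their values were seen. The groups of both did not overlap. Of the 16 genes, groups without overlap were higher in 3 and lower in 4, beside 15% and 17.8% of all genes. Gapdh, Pkm, Tpi1 and Pgam1, which run steps that no measured member covers, were singled out after their values were seen. Gapdh averaged 13.75 ± 0.03 in 4OHT wells and 13.74 ± 0.03 in vehicle wells, and Pkm, the pyruvate kinase of most tissues, 13.21 ± 0.02 and 13.22 ± 0.02 in the same order (SD, n = 3 each). The log2 fold change of Tpi1 was 0.02 (SE 0.043). Pgam1 was at 12.73, 12.68 and 12.69 in 4OHT wells, against 12.57, 12.59 and 12.60 in vehicle wells, and although its groups did not overlap it was not called (log2 fold change 0.11, limma adjusted p = 0.134). Of 23 measured genes of the pathway, members included, 5 were called (Hk2, Aldoc, Eno2, Pfkm and Eno3), beside 12% of all genes in either direction.

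**Figure D2:**
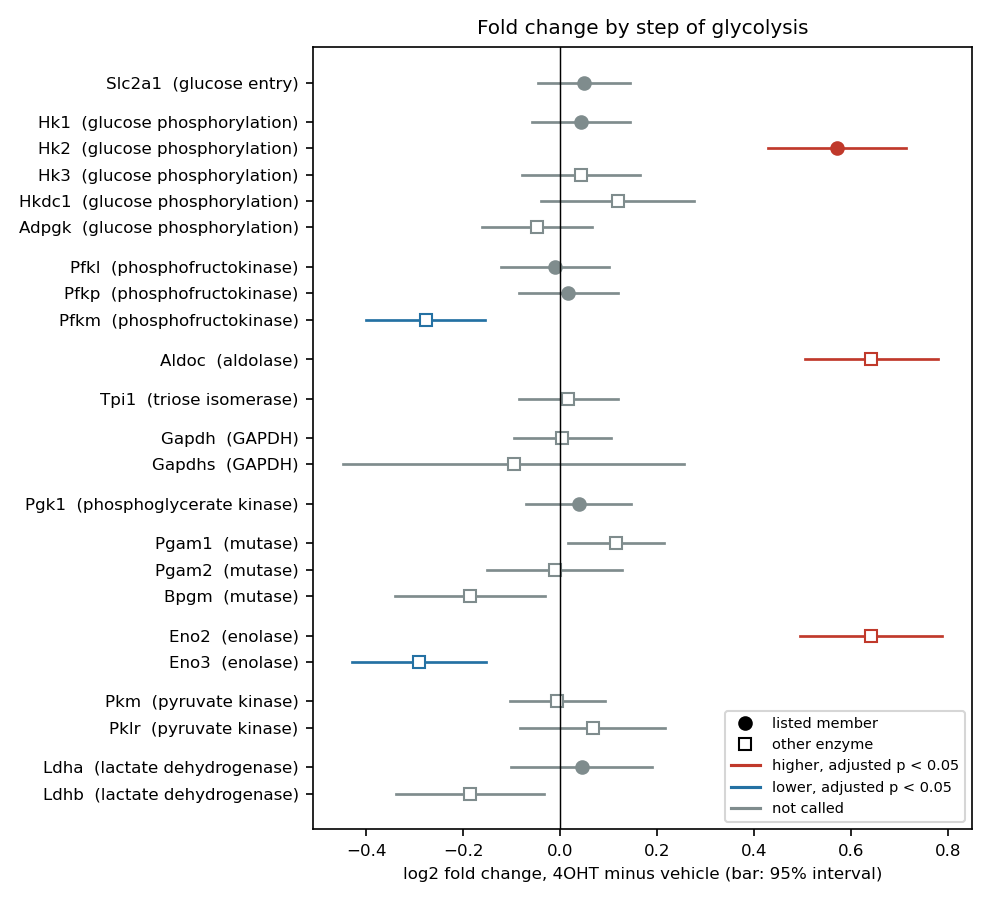
Log2 fold change (4OHT minus vehicle, x axis) with its 95% interval for the 23 measured genes of glucose entry and glycolysis, ordered from the first step at the top to the last. Filled circles are listed members and open squares other enzymes. Hk2, Aldoc and Eno2 stand near 0.6, Pfkm and Eno3 near -0.28 and -0.29, and the genes not called between -0.19 and 0.12.

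Upstream sequence is shown for the called genes of glycolysis and hexose transport that rose (Hk2, Aldoc, Eno2 and Slc2a6) and for Hk1 and Slc2a1, which act at the same first steps and did not pass. Each run is the 250 bases before an annotated RefSeq start, in the GRCm38.p6 build, and capitals mark the letters ACGTG or GCGTG on either strand. ACGTG and GCGTG hold the core to which hypoxia-inducible factors bind, and ACGTG also lies within CACGTG, the E-box that Myc can bind. All 10 listed genes had at least 1 start in the RefSeq table.
Hk2 (GRCm38.p6 chr6:82774455-82774704, minus strand): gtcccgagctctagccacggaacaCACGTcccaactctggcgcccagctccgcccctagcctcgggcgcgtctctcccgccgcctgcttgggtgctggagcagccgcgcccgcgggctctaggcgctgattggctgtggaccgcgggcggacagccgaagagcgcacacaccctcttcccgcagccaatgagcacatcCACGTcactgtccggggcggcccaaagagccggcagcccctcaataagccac
Hk1, first annotated start (GRCm38.p6 chr10:62379909-62380158, minus strand): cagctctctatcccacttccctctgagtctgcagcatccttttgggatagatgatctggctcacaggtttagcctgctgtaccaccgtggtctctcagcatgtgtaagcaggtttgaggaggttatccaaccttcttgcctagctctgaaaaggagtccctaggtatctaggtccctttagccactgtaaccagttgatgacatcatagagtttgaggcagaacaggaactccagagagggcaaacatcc
Hk1, second annotated start (GRCm38.p6 chr10:62340422-62340671, minus strand): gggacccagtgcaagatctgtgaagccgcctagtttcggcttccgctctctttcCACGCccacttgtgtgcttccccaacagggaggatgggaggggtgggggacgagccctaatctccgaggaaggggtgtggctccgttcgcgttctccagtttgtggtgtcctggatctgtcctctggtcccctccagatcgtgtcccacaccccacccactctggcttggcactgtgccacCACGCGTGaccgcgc
Slc2a1 (GRCm38.p6 chr4:119108495-119108744, plus strand): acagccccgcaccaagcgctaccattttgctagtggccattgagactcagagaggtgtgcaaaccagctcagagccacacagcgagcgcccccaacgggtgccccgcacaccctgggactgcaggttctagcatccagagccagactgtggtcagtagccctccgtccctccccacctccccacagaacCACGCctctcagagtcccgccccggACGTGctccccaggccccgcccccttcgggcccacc
Aldoc, first annotated start (GRCm38.p6 chr11:78322823-78323072, plus strand): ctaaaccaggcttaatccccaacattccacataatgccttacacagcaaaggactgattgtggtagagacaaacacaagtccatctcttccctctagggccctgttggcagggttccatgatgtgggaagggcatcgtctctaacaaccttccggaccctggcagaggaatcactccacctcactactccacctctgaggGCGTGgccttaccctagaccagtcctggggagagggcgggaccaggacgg
Aldoc, second annotated start (GRCm38.p6 chr11:78323948-78324197, plus strand): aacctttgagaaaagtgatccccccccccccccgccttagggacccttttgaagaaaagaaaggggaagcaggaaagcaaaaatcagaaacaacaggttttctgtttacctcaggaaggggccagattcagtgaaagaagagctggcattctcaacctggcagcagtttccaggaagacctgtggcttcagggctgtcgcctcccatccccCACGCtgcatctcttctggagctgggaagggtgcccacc
Eno2 (GRCm38.p6 chr6:124769674-124769923, minus strand): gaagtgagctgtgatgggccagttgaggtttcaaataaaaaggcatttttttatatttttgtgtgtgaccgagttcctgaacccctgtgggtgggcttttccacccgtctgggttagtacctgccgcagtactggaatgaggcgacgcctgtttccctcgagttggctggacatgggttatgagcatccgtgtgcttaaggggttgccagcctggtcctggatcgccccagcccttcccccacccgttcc
Slc2a6 (GRCm38.p6 chr2:27027999-27028248, minus strand): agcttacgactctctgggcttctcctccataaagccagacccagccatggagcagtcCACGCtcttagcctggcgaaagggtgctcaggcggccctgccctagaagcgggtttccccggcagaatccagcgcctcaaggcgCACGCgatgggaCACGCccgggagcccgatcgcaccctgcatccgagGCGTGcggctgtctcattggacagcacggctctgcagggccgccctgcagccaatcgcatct

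ACGTG stood 2 times in the window of Hk2 and 1 time in that of Slc2a1, while neither window of Hk1 held it and the second held GCGTG 3 times. Among 32851 windows of this length in the mouse table, 16.6% held ACGTG, 28.2% held GCGTG and 38.6% held at least 1 of these motifs. Eno2 rose without a match to either in its window, each window of Aldoc held GCGTG 1 time, and that of Slc2a6 held it 4 times. Pgk1 and Ldha, which did not pass, had 2 matches to ACGTG in the window of Pgk1 and 5 in the first window of Ldha. Matches thus stood beside genes that were called and beside genes that were not. A match is a string of letters in a short window and not a measured binding site.

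Of the other hexose transporters, 12 of 12 listed genes were measured, 1 rose, none fell and 11 did not pass. Over all genes 5.38% were called higher and 6.62% lower. Slc2a6, a transporter known mainly from internal membranes and from leukocytes, was at 9.004, 9.14 and 9.17 in 4OHT wells, against 8.47, 8.44 and 8.53 in vehicle wells. The groups lay far apart, with a log2 fold change of 0.63 (SE 0.059, limma adjusted p = 0.00140). Slc2a12 averaged 7.01 ± 0.0043 in 4OHT wells and 6.64 ± 0.21 in vehicle wells (SD, n = 3 each) and did not pass (log2 fold change 0.37, limma adjusted p = 0.0630), though it did once vehicle well 2 was dropped (0.0441). Slc2a3, the high-affinity carrier GLUT3, had a log2 fold change of -0.16 (limma adjusted p = 0.127). The median of the list was -0.08.

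Enzymes that steer phosphofructokinase or run the pathway backwards were covered next. 1 of 10 measured genes of this list fell and none rose, beside 6.62% and 5.38% of all genes. The median log2 fold change was 0.01. G6pc3, the glucose-6-phosphatase made outside liver and kidney, fell by 0.22 on the log2 scale (limma adjusted p = 0.0334). Dropping any array other than 4OHT well 3 ended this call (0.0776 to 0.105). Fbp2, the muscle fructose bisphosphatase, had a log2 fold change of -0.38 (limma adjusted p = 0.0757), which passed once vehicle well 3 was dropped (0.0398). Tigar, whose product lowers the activator of phosphofructokinase, had a log2 fold change of 0.20 (limma adjusted p = 0.0892).

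The fate of pyruvate and lactate was covered by 22 measured genes, of which 1 rose, 3 fell and 18 did not pass. These counts stand beside 5.38% of all genes called higher and 6.62% lower. The median log2 fold change of the list was -0.03. Slc16a7 encodes MCT2, a carrier that takes up lactate and pyruvate at low concentrations. It was at 8.04, 8.09 and 8.22 in 4OHT wells, against 8.78, 8.79 and 8.86 in vehicle wells, so that every 4OHT well was lower (log2 fold change -0.69, SE 0.061, limma adjusted p = 0.00110). Pdp2, a phosphatase that switches pyruvate dehydrogenase on, was at 8.29, 8.44 and 8.22 in 4OHT wells, against 7.63, 7.71 and 7.88 in vehicle wells (log2 fold change 0.57, SE 0.085, limma adjusted p = 0.00794).

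Pdk3 and Pdk4 encode kinases that switch the same enzyme off. Pdk3 fell by 0.27 on the log2 scale (limma adjusted p = 0.0148) and Pdk4 also by 0.27 (limma adjusted p = 0.0346). Pdk3 missed the threshold when 4OHT well 2 (0.0658), vehicle well 1 (0.0552) or vehicle well 2 (0.0613) was dropped. Pdk4 missed it whichever array was dropped (0.0518 to 0.106). The carriers Slc16a1 and Slc16a3, which export lactate in many cells, had log2 fold changes of -0.14 and 0.08 and did not pass; they were singled out after their values were seen.

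**Figure D3:**
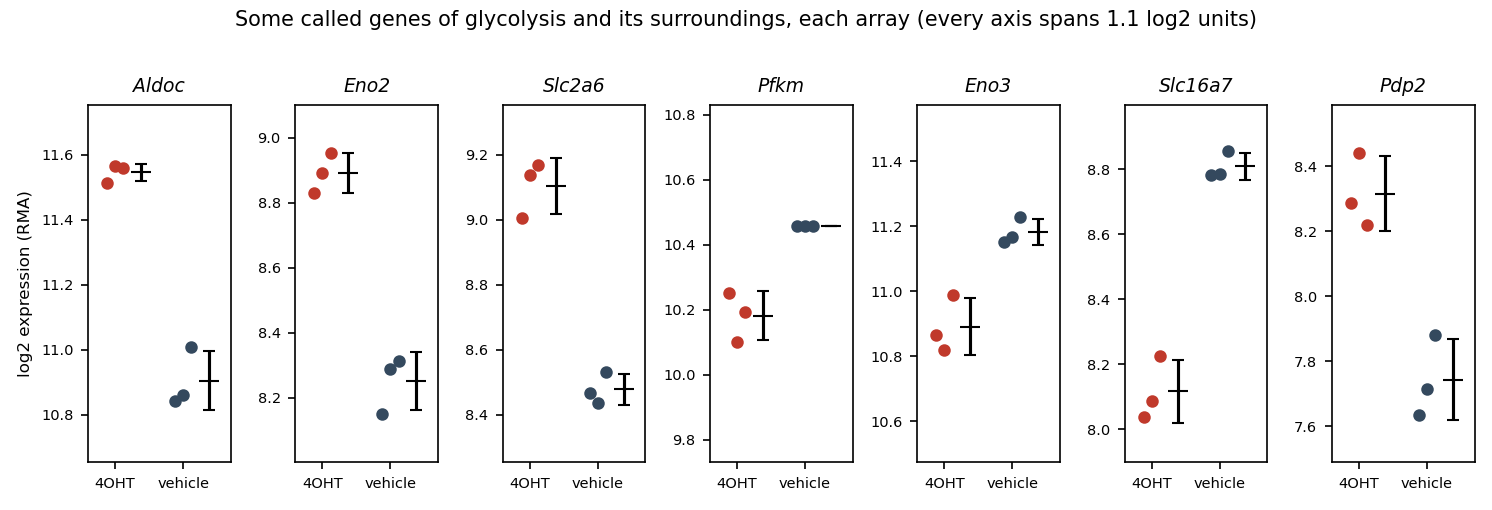
Log2 expression on each array of 7 called genes of glycolysis, hexose transport and pyruvate handling, with 4OHT wells (red) left of vehicle wells (dark blue) and the mean ± SD of 3 wells beside them. These 7 were picked from the called genes, so that separated groups largely follow from the choice. The groups do not overlap in any of them, beside 32.7% of all genes. The 4OHT wells are higher for Aldoc, Eno2, Slc2a6 and Pdp2 and lower for Pfkm, Eno3 and Slc16a7.

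The pentose phosphate pathway branches off after hexokinase and supplies NADPH and ribose. Of its 9 measured genes 2 rose and none fell, beside 5.38% and 6.62% of all genes (median log2 fold change 0.03). Rpia, the ribose phosphate isomerase, rose by 0.53 on the log2 scale (SE 0.097, limma adjusted p = 0.0174), and Pgd, which yields NADPH in the oxidative arm, by 0.21 (SE 0.041, limma adjusted p = 0.0226). Rpia stayed called when 4OHT well 2 or vehicle well 3 was dropped, but not when 4OHT well 1 or 3 or vehicle well 1 or 2 was (0.0506 to 0.0646). Pgd missed the threshold whichever array was dropped (0.0501 to 0.0921). Prps1, which makes the ribose donor for nucleotides, had a log2 fold change of -0.25 (limma adjusted p = 0.0585) and passed once 4OHT well 3 was dropped (0.0390).

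Further branches lead to glycogen, hexosamines, serine and glycerol. Of 20 measured genes 2 rose, 2 fell and 16 did not pass, beside 5.38% and 6.62% of all genes called higher and lower. Their median log2 fold change was 0.00. Gyg, which encodes glycogenin, the primer of glycogen synthesis, averaged 13.44 ± 0.08 in 4OHT wells and 12.98 ± 0.02 in vehicle wells (SD, n = 3 each; log2 fold change 0.46, limma adjusted p = 0.00359). The glycogen phosphorylases Pygb and Pygm, which break glycogen down, fell by 0.38 and 0.32 on the log2 scale (limma adjusted p = 0.00253 and 0.00975). Dropping any 1 array kept these 3 calls. Gfpt2, the entry enzyme of hexosamine synthesis, rose by 0.23 (limma adjusted p = 0.0190), a call that ended when 4OHT well 1 or 2 or vehicle well 1 or 2 was dropped (0.0510 to 0.0794).

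Regulators of glucose use went both ways, with 2 of 23 measured genes higher and 2 lower, beside 5.38% and 6.62% of all genes. Their median log2 fold change was -0.02. Txnip, which restrains glucose uptake and responds to glucose through MondoA, averaged 12.14 ± 0.03 in 4OHT wells and 12.49 ± 0.02 in vehicle wells (SD, n = 3 each; log2 fold change -0.35). Srebf1, which encodes a transcription factor of lipid synthesis, rose by 0.42 on the log2 scale (limma adjusted p = 0.00239). Egln3, an oxygen-sensing prolyl hydroxylase, rose by 0.20 and Vhl, which marks hypoxia-inducible factors for breakdown, fell by 0.21 (limma adjusted p = 0.0221 and 0.0413). Egln3 missed the threshold whichever array was dropped (0.0505 to 0.0776), and Vhl whenever an array other than 4OHT well 3 was (0.0736 to 0.135).

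Genes that respond to low oxygen but lie outside glycolysis were also divided. 6 of 17 measured, Egln3 among them, rose and 3 fell, beside 5.38% and 6.62% of all genes, with a median log2 fold change of 0.14. Adm, the peptide hormone adrenomedullin, rose by 0.71 on the log2 scale, Stc2 by 0.38 and the histone demethylase gene Kdm3a by 0.31 (limma adjusted p = 0.00247, 0.00516 and 0.00476). Angptl4, a lipase inhibitor, fell by 1.29, Ppp1r3c, which targets a phosphatase to glycogen, by 0.68, and the carbonic anhydrase gene Car12 by 0.47 (limma adjusted p = 0.000739, 0.000785 and 0.00277). Among the members and other glycolytic enzymes, some known targets of hypoxia-inducible factors, such as Hk2 and Aldoc, were called higher. Others, such as Slc2a1, Pgk1 and Ldha, did not pass. These are examples and not a full list of targets, and the activity of these factors was not tested.

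**Figure D4:**
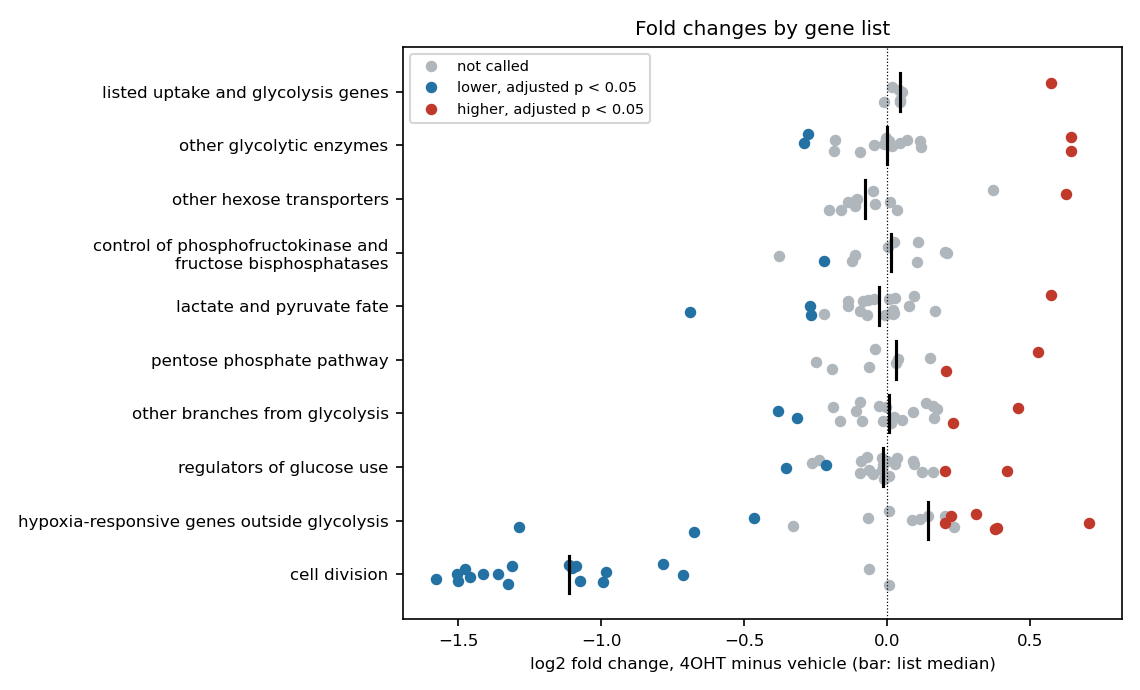
Log2 fold change (4OHT minus vehicle, x axis) of every measured gene of 10 lists (rows), with called genes in red where higher and blue where lower and a bar at each list's median. In the row of members Hk2 stands alone at 0.57, with the other 6 genes between -0.01 and 0.05.

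The genes most like Hk2 were sought by the distance between log2 values centred on each gene's mean over the 6 arrays. The nearest 5 were Bcl3 (distance 0.0544), a cofactor of NF-kappaB, Clcn5 (0.0670), a chloride and proton exchanger of endosomes, Bhlhe40 (0.0787), a transcriptional repressor, Etfbkmt (0.0799), a lysine methyltransferase of mitochondria, and Cd24a (0.0908), a surface glycoprotein. Their log2 fold changes ran from 0.54 for Bcl3 to 0.62 for Etfbkmt. A list of the nearest genes out of 22180 over 6 arrays in 2 groups is a description of these arrays.

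Other features of the culture also differed between the groups. Of 19 measured genes of cell division, 17 fell and none rose. The shares over all genes, 6.62% lower and 5.38% higher, are the background of this and of the marker counts below. The mean log2 level of the cell division genes ran from 8.35 to 8.48 on the 4OHT arrays and from 9.50 to 9.58 on the vehicle arrays. Mki67, the proliferation antigen gene, was at 8.56, 8.38 and 8.50 in 4OHT wells, against 10.05, 9.89 and 9.88 in vehicle wells (log2 fold change -1.46). 8 of 8 fibroblast markers lay above the median level of all genes. Their mean level ran from 12.29 to 12.31 in 4OHT wells and from 12.39 to 12.42 in vehicle wells. Of these 8 markers 1, Col3a1, fell (log2 fold change -0.29, limma adjusted p = 0.00936) and none rose. The 9 smooth muscle and pericyte markers also all lay above that median. Of these 9 markers 5 fell and none rose, with mean levels from 11.90 to 11.94 in 4OHT wells and from 12.25 to 12.28 in vehicle wells. Mean levels of 8 endothelial markers ran from 6.59 to 6.65 in 4OHT wells and from 6.74 to 6.86 in vehicle wells (2 higher, 3 lower). Those of 9 epithelial markers ran from 6.79 to 6.86 and from 6.83 to 6.87 (1 lower), of 9 leukocyte markers from 7.07 to 7.18 and from 7.06 to 7.15 (1 higher, 1 lower), and of 4 mesothelial markers from 10.64 to 10.71 and from 10.70 to 10.74 (1 higher, 1 lower), each with the 4OHT arrays named before the vehicle arrays. Of the markers of the mesothelium that lines the lung, Wt1, Msln and Upk3b lay above the median level of all genes and Krt19 below it. The part of dividing cells or of other cell types in the rise of Hk2 was not tested, and in such bulk samples more cells of a type and more RNA per cell cannot be told apart.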

How the data were processed

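Total RNA was labelled by oligo(T) priming and in vitro transcription and hybridised to single-colour Affymetrix arrays, per the labels' protocols. The deposited values are log2 expression per probe set, as the authors gave them. RMA, oligo and limma are the tools listed, without versions or roles, per the submitters' processing notes. RMA is meant to equalize the distributions of arrays, so a shift of all genes may be removed. It also compresses fold changes of dim probe sets. Over all probe sets the deposited medians were 6.776, 6.747 and 6.725 on 4OHT arrays and 6.717, 6.712 and 6.695 on vehicle arrays. Over the genes tested they were 7.437, 7.445 and 7.452 on 4OHT arrays and 7.473, 7.452 and 7.472 on vehicle arrays. The medians thus differed between the groups in opposite directions. No source used here gives a genome build. Detection calls were not used.

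Of 41345 probe sets, 23521 had 1 gene symbol, 1814 several and 16010 none in the platform's annotation. The 23521 gave 22180 genes, 1 probe set each, with no filter on dim genes. Names were checked by gene number against RefSeq (23328 matched, 0 symbols changed). The groups (n = 3 each) were compared with lmFit and eBayes of limma 3.58.1 under R 4.3.3, two-sided, with Benjamini-Hochberg adjustment over all genes and a threshold of 0.05. The test was tried on simulated data. Log2 fold changes are 4OHT minus vehicle. The number of arrays limits the precision. Members and lists were chosen with earlier results of these data known. The text names every member and, from each other list, up to 6 called genes of smallest p, or the 3 of smallest p where fewer than 3 were called, plus the 5 genes most like the member of smallest p. Markers of erythroid cells were listed too, but 0 of them had a value here. Upstream sequences are RefSeq's, GRCm38.p6. Alternatives covered scaling, probe sets, spread, weights, threshold, a replicate block and leaving out each array.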

Additional observations from a re-analysis of the deposited data

How the results depend on the processing

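Hk2 was called higher, and no member lower, under all 10 alternatives that kept every array and without each of the 6 arrays, with log2 fold changes from 0.52 to 0.60. Genes with a log2 fold change near 0 changed sign. That of Pfkl was 0.0028 after a second quantile normalization, 0.011 with arrays centred on the medians of the genes tested, an alternative chosen after seeing the data, and from -0.042 to 0.0092 without each array. That of Ldha ran from -0.012 to 0.080 without each array, and with arrays centred on the medians of all probe sets Pfkp had -0.024 and Pgk1 -0.0024. None of these was called, and the cause was not tested.

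Counts over all genes moved more. Higher and lower calls, 1193 and 1469 as reported, were 648 and 920 with the replicate number as a block, 1828 and 2295 with a trended and robust eBayes, 571 and 818 with all probe sets in the fit, and 395 and 615 at an adjusted p under 0.01. Centring on the medians of all probe sets gave 775 higher and 1748 lower, or 30.7% higher against 44.8% as reported, and centring on the genes tested 1406 and 1288. Without each array the counts ran from 486 to 986 higher and from 734 to 1340 lower. Without 4OHT replicate 1 they were 622 and 851, without 4OHT replicate 2 they were 486 and 734, without vehicle replicate 1 they were 655 and 930, and without vehicle replicate 2 they were 556 and 780. Same-numbered wells share a number, and whether they were handled as pairs is not known. Their deviations from the group means had correlations of 0.06, -0.02 and 0.04, which with 3 wells per group cannot settle this. With the block the calls of Pfkm, G6pc3, Pdk3, Pdk4, Pgd, Gfpt2, Egln3 and Vhl were lost and Fbp2 was called. With all probe sets in the fit the calls of Pfkm, Eno3, G6pc3, Pdk4, Pgd, Gfpt2, Egln3 and Vhl were lost, and at an adjusted p under 0.01 these 8 and those of Pdk3 and Rpia. Centring on the medians of all probe sets ended the calls of Pgd, Gfpt2 and Egln3, and centring on the genes tested that of Vhl. Calls were gained by Slc2a12, Slc2a3, Fbp2, Tigar or Prps1 under array weights, either centring, a second quantile normalization, a trended and robust eBayes, or with the dimmer genes left out.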
